A study of Mus musculus with 6 samples.

Results

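The genes of the major histocompatibility complex (MHC) and of the pathway that loads its molecules with antigen were examined in γδ T cells of the mouse spleen. They were chosen by gene name: every array probe named with the prefix H2-, and every probe for B2m, Tap1, Tap2, Tapbp, Psmb8, Psmb9, Psmb10, Cd74, Ciita, Nlrc5, Cd1d1 or Mr1. This gave 52 of the 30199 gene names on the array, with 70 of its 39429 probes. Probes of the same gene were kept apart.

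RNA came from 2 populations of TCRβ-negative, TCRγδ-positive, CD3-positive spleen cells, the GFP-positive (Eomes-positive) and the GFP-negative (Eomes-negative) cells of the Eomes-IRES-GFP reporter line (allele Eomestm1.1Twa, background C57BL6), and both carried the reporter. GFP stands in for the transcription factor Eomes in these mice. Each of 3 independent sorts pooled several spleens, after depletion of B220-, CD4- and CD8β-bearing cells, and gave 1 array of each population. Mice were 9, 9.5 and 7.5 weeks old in sorts 1, 2 and 3, and 9, 9 and 4 ng of RNA were amplified.

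Class I molecules are a heavy chain paired with the light chain β2-microglobulin, and nearly every nucleated cell shows peptides from its own cytosol on them. Those peptides are cut by the immunoproteasome, carried into the endoplasmic reticulum by the TAP transporter and loaded with the help of tapasin. Class II molecules show peptides from endosomes and are characteristic of B cells, dendritic cells and macrophages, while resting mouse T cells make little of them. γδ T cells are not restricted by classical MHC, but some recognise nonclassical class I molecules.

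Levels are log2 signals minus the 75th percentile of their array, so a level is a property of a probe on an array and not comparable between probes. Differences are Eomes-positive minus Eomes-negative on that log2 scale. A probe was taken as measured if 50% or more of its spots on the array carried the scanner software's flag for signal well above background, and was tested where it was measured on at least 3 of the 6 arrays. Per array 47.74 to 56.61% of probes were measured, the raw 75th percentiles were 1580.7 to 1684 intensity units in sorts 1 and 2 and 534.07 and 549.48 in sort 3, and the number of arrays limits precision. Eomes itself, by its brightest probe, had levels of 5.31, 4.96 and 4.48 in Eomes-positive cells of sorts 1, 2 and 3, against 0.72, 0.88 and -1.14 in Eomes-negative cells. The T cell receptor complex gene Cd3d lay between 6.95 and 7.15 on the 6 arrays, and 7 of 7 probes of the γδ T cell list were measured on all arrays, 1 of them, for Tcrg-V6, called lower in Eomes-positive cells. These are bulk samples, in which fewer cells of a type and less RNA per cell cannot be told apart.

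Of the 70 probes, 52 were tested, for 41 genes, and the other 18 were measured on no array. None was called different between the populations: limma gave 0 of 52 past an adjusted p of 0.05, against 2.41% of all 21131 tested probes (1.04% higher and 1.38% lower). A fit that blocks on sort again gave 0, against 6.72% of all tested probes (3.05% higher and 3.67% lower). At an unadjusted p under 0.05, 2 of 52 passed, against 11.7% of all tested probes. The median difference over the 52 was 0.11, with a range from -0.58 to 0.89, beside a median of -0.014 over all tested probes. In Eomes-positive cells 15 of the 52 probes (28.8%) were higher in all 3 sorts and 8 (15.4%) were lower in all 3, where 24.5% and 26.6% of all tested probes were. The populations did not overlap in 4 of the 52 (7.69%), against 17.5% of all tested probes. Sort was the larger source of spread: the 3 sorts differed for 18 of the 52 (34.6%), against 21.3% of all tested probes (limma F test, adjusted p under 0.05).

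**Figure D1:**
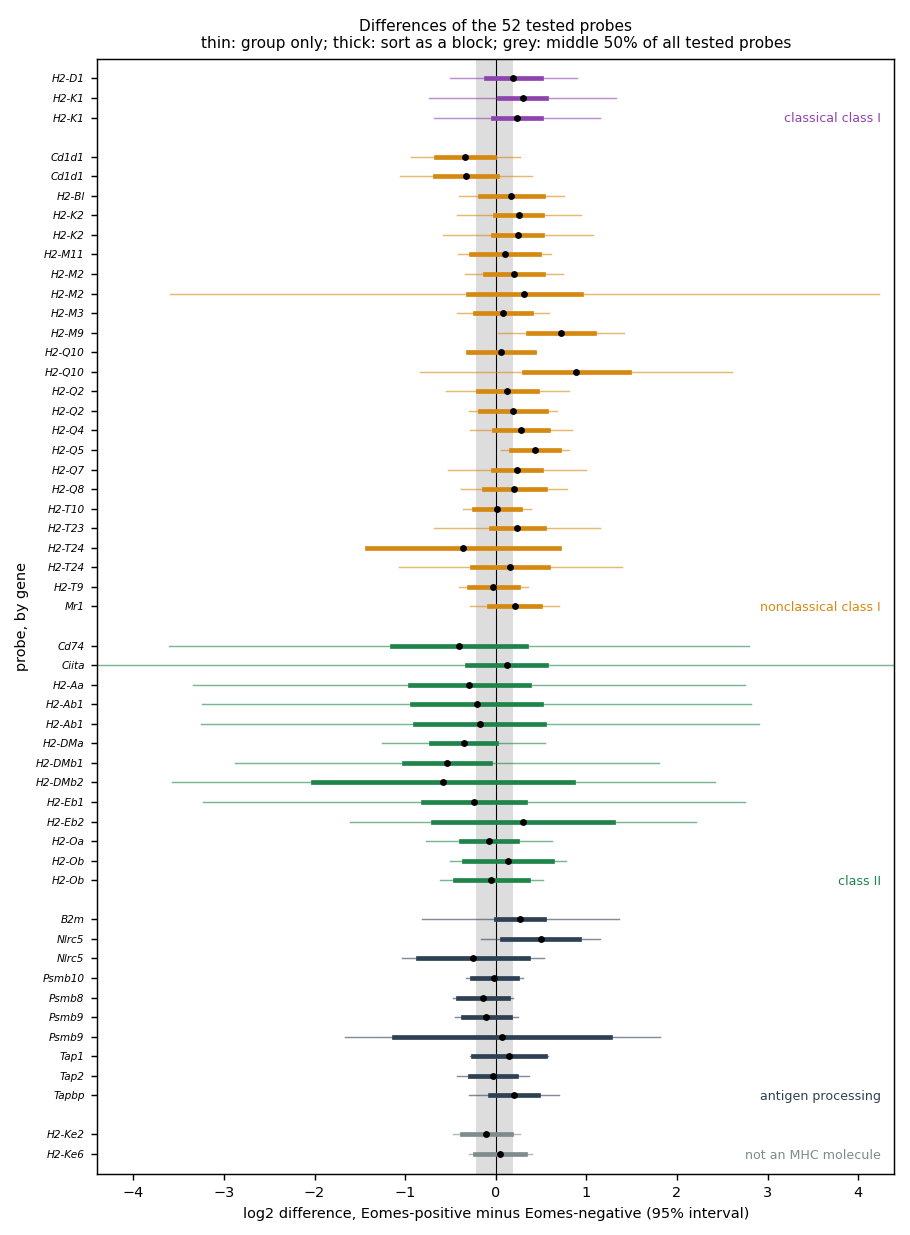
Log2 difference, Eomes-positive minus Eomes-negative, for each of the 52 tested probes (points), grouped by class, with 95% intervals from limma with group only (thin lines) and with the sort as a block (thick lines). The grey band is the middle 50% of all tested probes; class II intervals are wide until the sort is a block, and the thin Ciita interval, -7.03 to 7.27, runs past both edges of the axis.

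The classical class I heavy chains are H2-K1 and H2-D1 in this strain, the molecules that present peptides to CD8 T cells. The brightest H2-K1 probe, at chr17:34133055-34133114 on the minus strand (mm9), had levels of 7.68, 7.74 and 8.73 in Eomes-positive cells of sorts 1, 2 and 3, against 7.31, 7.52 and 8.42 in Eomes-negative cells. Eomes-positive cells were higher in each sort, the populations overlapped, and both were highest in sort 3. The difference was 0.30 (SE 0.42, limma adjusted p = 0.957), with a 95% interval of -0.73 to 1.33, and blocking on sort narrowed it to 0.04 to 0.56 (limma adjusted p = 0.163).

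H2-D1, measured at chr17:35403886-35403945 on the plus strand, had levels of 7.33, 7.41 and 7.88 in Eomes-positive cells, against 6.97, 7.23 and 7.84 in Eomes-negative cells. The same order appeared, with Eomes-positive above Eomes-negative in each sort by 0.36, 0.18 and 0.04. The difference was 0.19 (SE 0.28, limma adjusted p = 0.962). All 3 classical probes were higher in Eomes-positive cells in all 3 sorts, with a median difference of 0.23, and 0 passed the test.

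B2m encodes the light chain that all class I heavy chains share, and lies outside the complex, at chr2:121978401-121978460 for this probe. Its levels were 7.64, 7.96 and 8.91 in Eomes-positive cells, against 7.45, 7.68 and 8.56 in Eomes-negative cells. It followed the heavy chains: slightly higher in Eomes-positive cells of each sort, and highest in sort 3 in both populations. The difference was 0.27 (SE 0.44, limma adjusted p = 0.971).

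The sort 3 arrays stood above the others for the bright class I probes. Sort 3 exceeded the mean of sorts 1 and 2 by 1.02 for H2-K1, 1.06 for B2m, 0.88 for H2-T23, 0.71 for H2-Q7 and 0.62 for H2-D1. Bright probes in general did the same: over all 521 tested probes with a mean level of 7 or more the median shift was 0.61, with quartiles of 0.45 and 0.79. The sorts differed for H2-K1, B2m, H2-T23 and H2-Q7 (limma F test of sort, adjusted p between 0.0186 and 0.0356) and not past the threshold for H2-D1 (0.0559). Under quantile normalization the same shifts were 0.29, 0.27, 0.33, 0.14 and 0.12 in the same order. Sort 3 is also the sort with 4 ng of RNA, with the youngest mice and with a slide of its own, so these cannot be told apart.

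**Figure D2:**
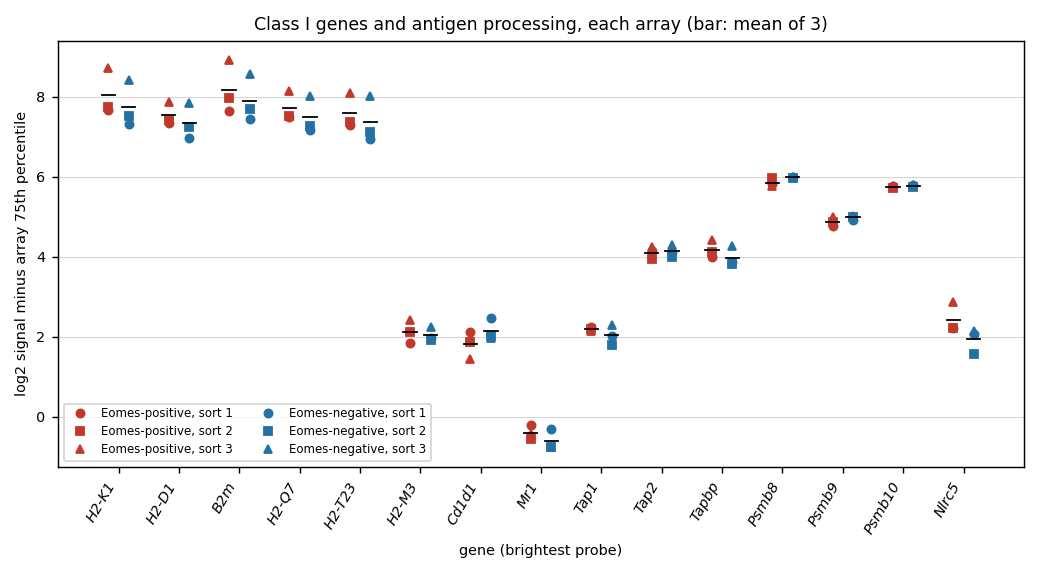
Level of the brightest probe of each gene on each of the 6 arrays (y axis, log2 signal minus the array's 75th percentile), with Eomes-positive arrays left of Eomes-negative ones, a symbol for each sort and a bar at the mean of 3. The sort 3 triangles lie above the other sorts for H2-K1, B2m, H2-Q7 and H2-T23, whereas Psmb8, Psmb9 and Psmb10 stay within 0.3 over all 6 arrays.

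Class I genes are close copies of each other, which bears on what a probe measures. Among the 26 class I probes measured on all arrays there were 319 pairs from different genes, and 2 of them shared a run of 20 bases or more. One pair is a probe for the classical H2-K1 and the probe for the nonclassical H2-T23, both in the stretch that encodes the membrane-spanning part. They are shown because they share this run, together with the H2-Q8 probe, which shares a shorter run of 14 bases with the H2-K1 probe. Capitals mark the run shared between H2-K1 and H2-T23 in those 2 probes (29 bases), and the run shared with H2-K1 in the H2-Q8 probe:
H2-K1 (chr17:34133984-34134043, minus strand, mm9): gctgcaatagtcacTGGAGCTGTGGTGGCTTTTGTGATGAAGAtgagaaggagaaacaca
H2-T23 (chr17:36167338-36167574, minus strand, mm9): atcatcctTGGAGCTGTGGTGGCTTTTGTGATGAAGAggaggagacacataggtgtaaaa
H2-Q8 (chr17:35565247-35565306, plus strand, mm9): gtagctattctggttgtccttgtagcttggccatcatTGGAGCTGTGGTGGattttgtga
The other pair is a probe for H2-K2, a class I gene of the K region, and the probe for H2-Q7, which share these 28 bases:
H2-K2 and H2-Q7: TCTCCTGTGACATCCAGAGCCCTCAGTT
This count compares probes with probes and not with transcripts. A probe that shares no long run with another probe may still match the transcript of another class I gene. The count therefore cannot tell which probes are specific. The submitters' files do not say how much each transcript adds to any of the class I probes, and it was not tested here.

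The nonclassical class I genes of the Q, T and M regions, counted with H2-K2 of the K region, Cd1d1 and Mr1, had 39 probes for 28 genes. Of these, 24 probes for 18 genes were tested and 15 were measured on no array, among them all probes for H2-T3, H2-T18, H2-M1, H2-M5, H2-Q1 and the H2-M10 genes. The median difference over the 24 was 0.20, with 0 called, 9 probes higher in Eomes-positive cells in all 3 sorts and 2 lower in all 3.

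H2-T23 encodes Qa-1, which presents leader peptides of other class I chains to the CD94 and NKG2 receptors of killer cells. Its levels were 7.30, 7.38 and 8.10 in Eomes-positive cells, against 6.94, 7.12 and 8.02 in Eomes-negative cells. The pattern was that of the H2-K1 probe with which it shares sequence, and the difference was 0.24 (SE 0.37, limma adjusted p = 0.970). H2-Q7 encodes Qa-2, a membrane-anchored class I molecule of restricted variability. It had levels of 7.48, 7.52 and 8.15 in Eomes-positive cells, against 7.16, 7.28 and 8.01 in Eomes-negative cells, a difference of 0.23 (SE 0.31, limma adjusted p = 0.951).

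H2-M3 presents formylated peptides of bacteria and mitochondria. Its levels were 1.84, 2.11 and 2.42 in Eomes-positive cells, against 1.96, 1.93 and 2.25 in Eomes-negative cells. Eomes-positive cells were higher in 2 of the 3 sorts, and the difference of 0.08 (SE 0.20, limma adjusted p = 0.986) was smaller than the spread between sorts. Mr1, which presents vitamin B metabolites to MAIT cells, had levels of -0.19, -0.56 and -0.43 in Eomes-positive cells, against -0.29, -0.74 and -0.76 in Eomes-negative cells. It was higher in Eomes-positive cells of each sort, and the difference was 0.21 (SE 0.20, limma adjusted p = 0.895).

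Cd1d1 presents lipids to NKT cells and to some γδ T cells, and pointed the other way. Its brightest probe, at chr3:86799791-86799850, had levels of 2.11, 1.88 and 1.45 in Eomes-positive cells, against 2.48, 2.02 and 1.97 in Eomes-negative cells. It was lower in Eomes-positive cells of each sort although the populations overlapped, and the difference was -0.34 (SE 0.24, limma adjusted p = 0.788). The second Cd1d1 probe gave -0.33, and the 2 probes of the neighbouring Cd1d2, a close copy, gave -0.36 and -0.50, also lower in all 3 sorts with 0 called. Sequence shared between the probes of the 2 genes was not tested.

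H2-Q5 and H2-M9 were the 2 probes past an unadjusted p of 0.05. H2-Q5, a Q region gene, had levels of 3.46, 3.34 and 3.66 in Eomes-positive cells, against 3.02, 2.99 and 3.15 in Eomes-negative cells. The populations did not overlap, and the difference was 0.43 (SE 0.15, limma unadjusted p = 0.0307, adjusted p = 0.331). H2-M9, an M region gene with a probe near the low end of the signal range, had levels of -3.52, -3.60 and -2.76 in Eomes-positive cells, against -4.23, -4.08 and -3.73 in Eomes-negative cells. Here too the populations did not overlap, with a difference of 0.72 (SE 0.28, limma unadjusted p = 0.0451, adjusted p = 0.408). Blocking on sort gave limma adjusted p-values of 0.0873 for H2-Q5 and 0.0619 for H2-M9, the lowest 2 of the 52 and neither under 0.05.

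The other tested nonclassical probes had differences between -0.36 and 0.89, both ends from dim probes, for H2-T24 and H2-Q10. A dim H2-M2 probe, measured on 2 Eomes-positive and 1 Eomes-negative arrays, stood apart by sort and not by population. Its levels were -4.72, -1.37 and -6.06 in Eomes-positive cells, against -5.53, -1.73 and -5.82 in Eomes-negative cells, high in sort 2 alone (limma F test of sort, adjusted p = 0.0095). The brighter H2-M2 probe did not show this, with a range of 0.46 between the means of the sorts.

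The 10 probes of antigen processing genes, B2m included, had a median difference of 0.03 and 0 calls, and the median range between sort means was 0.35, beside 0.52 over all tested probes and 1.19 for B2m. Psmb8, Psmb9 and Psmb10 encode the 3 catalytic subunits that turn a standard proteasome into the immunoproteasome. Psmb10 had levels of 5.78, 5.73 and 5.76 in Eomes-positive cells, against 5.79, 5.73 and 5.79 in Eomes-negative cells. The 6 arrays were within 0.1 of each other, and the difference was -0.015 (SE 0.13, limma adjusted p = 0.998), with a 95% interval of -0.33 to 0.30.

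Psmb8 had levels of 5.82, 5.97 and 5.77 in Eomes-positive cells, against 5.99, 5.98 and 6.00 in Eomes-negative cells. All 3 Eomes-positive arrays lay below all 3 Eomes-negative ones, by a difference of -0.14 (SE 0.14, limma adjusted p = 0.897). Psmb9 had levels of 4.77, 4.87 and 5.001 in Eomes-positive cells, against 4.91, 5.01 and 5.03 in Eomes-negative cells, a difference of -0.10 (SE 0.14, limma adjusted p = 0.956). By their brightest probes the 3 subunits were lower in Eomes-positive cells in each sort, and none passed the test. A second, dim Psmb9 probe, measured on 2 Eomes-positive and 1 Eomes-negative arrays, was higher in Eomes-positive cells in sort 1 and lower in sorts 2 and 3 (differences of 1.30, -0.54 and -0.55), with a difference of 0.07 over the 3 sorts.

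Tap1 and Tap2 are the 2 chains of the peptide transporter, and Tapbp is tapasin, which holds class I molecules at it. Tap1 had levels of 2.24, 2.19 and 2.13 in Eomes-positive cells, against 2.03, 1.80 and 2.30 in Eomes-negative cells. Tap2 had levels of 4.14, 3.95 and 4.23 in Eomes-positive cells, against 4.11, 4.00 and 4.30 in Eomes-negative cells. For both genes the populations overlapped, with differences of 0.15 (SE 0.17) for Tap1 and -0.03 (SE 0.16) for Tap2 (limma adjusted p = 0.937 and 0.996). Tapbp had levels of 4.01, 4.11 and 4.43 in Eomes-positive cells, against 3.87, 3.81 and 4.27 in Eomes-negative cells, higher in Eomes-positive cells of each sort by a difference of 0.20 (SE 0.20, limma adjusted p = 0.908).

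Nlrc5 is the regulator that switches on class I genes. Its brighter probe had levels of 2.21, 2.21 and 2.87 in Eomes-positive cells, against 2.08, 1.58 and 2.15 in Eomes-negative cells. All 3 Eomes-positive arrays lay above all 3 Eomes-negative ones, and the difference was 0.49 (SE 0.27, limma adjusted p = 0.638, or 0.159 when blocked on sort). The other Nlrc5 probe was measured on 1 Eomes-positive and 2 Eomes-negative arrays and gave -0.25.

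Other genes of peptide loading and of the proteasome also gave no call. Of 16 probes for 12 genes, among them calreticulin, calnexin, the proteasome activators and the standard catalytic subunits, 0 were called and 10 (62.5%) were lower in Eomes-positive cells in all 3 sorts, where 26.6% of all tested probes were, and 1 was higher in all 3. Their median difference was -0.17. Psme2 and Psme1 encode subunits of the proteasome activator PA28. Psme2, by its brightest probe, had levels of 5.595, 5.71 and 6.09 in Eomes-positive cells, against 5.87, 5.96 and 6.11 in Eomes-negative cells. Another Psme2 probe had 5.73, 5.71 and 5.66 in Eomes-positive cells, against 5.94, 6.01 and 6.01 in Eomes-negative cells. Both probes were lower in Eomes-positive cells of each sort, the second without overlap, and neither passed the test (limma adjusted p = 0.912 and 0.488). The remaining Psme2 probe went the other way, with levels of -0.63, -1.42 and -0.43 in Eomes-positive cells, against -1.04, -2.15 and -0.92 in Eomes-negative cells. It was higher in Eomes-positive cells of each sort by a difference of 0.54 (limma adjusted p = 0.819, or 0.077 when blocked on sort).

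Class I genes answer to interferon, and of 10 tested probes of that signalling path 1 was called. Ifngr2, the second chain of the interferon-γ receptor, had levels of -2.801, -0.94 and -2.601 in Eomes-positive cells, against 0.89, 1.04 and 0.78 in Eomes-negative cells. It fell in Eomes-positive cells by 3.01 (SE 0.51, limma adjusted p = 0.047), with no overlap, where 1.38% of all tested probes were called lower. Socs1, an inhibitor of the same path, had a difference of -0.84 and was called only when sort was blocked (limma adjusted p = 0.0426, against 0.299 otherwise). The first receptor chain Ifngr1 had a difference of -0.005, and Irf1, which drives class I genes, one of 0.03.

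The promoters of H2-K1 and H2-D1 are shown because the array profiles of these 2 heavy chains were alike. The windows come from RefSeq (GRCm38.p6), which held 36 of the 52 member genes, and run from 250 bases before to 50 bases after a start. Capitals mark letters of the interferon-stimulated response element, searched on both strands as AGTTTC, any 2 bases, then TTC:
H2-K1 (chr17:34000409-34000479, minus strand): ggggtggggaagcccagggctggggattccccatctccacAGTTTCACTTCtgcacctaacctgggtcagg
H2-D1 (chr17:35262902-35262972, plus strand): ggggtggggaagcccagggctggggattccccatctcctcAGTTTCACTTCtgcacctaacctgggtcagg
The 2 stretches differ at 1 base. The motif was in 3 of 3 classical class I windows (H2-K1 has 2 starts), 4 of 19 nonclassical, 0 of 9 class II and 0 of 6 antigen processing windows, and in 0.527% of all 32851 windows. Among other genes, H2-Q7 and H2-Q4 held the motif, while H2-T23 and B2m did not. Sort 3 minus the mean of sorts 1 and 2 was 0.71 for H2-Q7 and -0.46 for H2-Q4. It was 0.88 for H2-T23 and 1.06 for B2m. A link between motif and profile was not tested. A match describes letters and is no evidence of binding.

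Class II genes behaved differently: they varied between sorts far more than between populations. Of 16 probes for 12 genes, 13 probes for 11 genes were tested, and 0 were called. Over the 13 the median difference was -0.21, with medians of -0.71, -0.17 and 0.30 within sorts 1, 2 and 3. The median range between sort means was 3.21, beside 0.52 over all tested probes, of which the highest 5% exceeded 2.33. The sorts differed for 8 of 13 (61.5%, limma F test), and sort 2 was the highest for 10 of 13 (76.9%), against 25.1% of all tested probes. The Ciita probe, from which no value for the transcript is drawn below, is among those 8 and was highest in sort 3. Both H2-Ab1 probes, which overlap, are also counted in the 13.

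H2-Aa and H2-Ab1 encode the α and β chains of I-A, the class II molecule of this strain. H2-Aa, at chr17:34421285-34421344 on the minus strand, had levels of 0.64, 4.43 and 2.68 in Eomes-positive cells, against 1.43, 4.81 and 2.37 in Eomes-negative cells. H2-Ab1 had levels of 1.597, 5.44 and 4.04 in Eomes-positive cells, against 2.39, 5.70 and 3.63 in Eomes-negative cells. Both genes were low in sort 1 and high in sort 2 in either population, and Eomes-positive cells were below Eomes-negative cells in sorts 1 and 2 but above them in sort 3. The differences were -0.29 (SE 1.24) for H2-Aa and -0.21 (SE 1.23) for H2-Ab1 (limma adjusted p = 0.994 and 0.997). Blocking on sort gave H2-Aa an interval of -0.95 to 0.37, in place of -3.34 to 2.75, and a limma adjusted p of 0.497.

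The 2 H2-Ab1 probes overlap by 51 bases and differ there at 1 base, in capitals in these stretches of them (positions are those of the whole probes):
H2-Ab1, brighter probe (chr17:34406296-34406355, plus strand, mm9): agattacaaataaacgagacTcagactctg
H2-Ab1, other probe (chr17:34406305-34406363, plus strand, mm9): agattacaaataaacgagacCcagactctg
Their differences, -0.21 and -0.18, and their ranges between sorts, 3.58 and 3.64, were alike, so they count as 1 measurement made by 2 probes.

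H2-Eb1 is the β chain of I-E, whose α chain gene H2-Ea is not functional in C57BL mice. Its levels were 1.24, 5.02 and 3.41 in Eomes-positive cells, against 1.95, 5.25 and 3.19 in Eomes-negative cells, and the probe for H2-Ea-ps was measured on no array. The order of the arrays was that of I-A, and the difference was -0.24 (SE 1.21, limma adjusted p = 0.996). Cd74 is the invariant chain that blocks the groove until class II reaches endosomes. It had levels of -1.02, 2.72 and 2.795 in Eomes-positive cells, against 0.05, 3.03 and 2.61 in Eomes-negative cells, again low in sort 1 (limma F test of sort, adjusted p = 0.0166) with a difference of -0.40 (SE 1.30, limma adjusted p = 0.993).

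H2-DMa and H2-DMb1 form H2-DM, which exchanges peptides in class II molecules, and H2-Oa and H2-Ob form its inhibitor H2-O. H2-DMb1 followed I-A, with a range of 2.602 between sort means and levels below those of Eomes-negative cells in all 3 sorts. Its difference was -0.54 (SE 0.95, limma adjusted p = 0.974). H2-DMa ranged by 0.88 between sorts and was also lower in all 3 (difference -0.36, limma adjusted p = 0.910). H2-Oa ranged by 0.70, with levels of 3.11, 3.44 and 2.62 in Eomes-positive cells against 3.31, 3.33 and 2.76 in Eomes-negative cells, and the 2 tested H2-Ob probes by 0.56 and 0.44. The inhibitor chains thus did not show the drop in sort 1 that I-A showed. H2-DMb2, measured on 2 Eomes-positive and 3 Eomes-negative arrays, and H2-Eb2 had differences of -0.58 and 0.30.

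**Figure D3:**
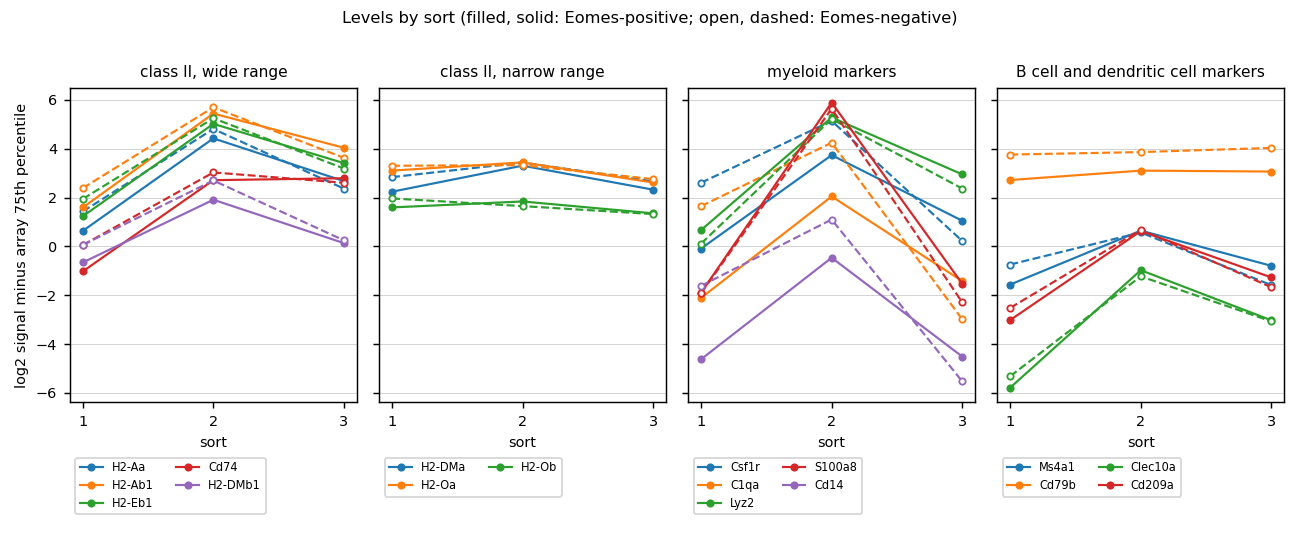
Levels by sort (y axis, log2 signal minus the array's 75th percentile; filled and solid for Eomes-positive, open and dashed for Eomes-negative) of class II genes with a wide and with a narrow range, of myeloid markers, and of B cell and dendritic cell markers. H2-Aa, H2-Ab1 and H2-Eb1 peak in sort 2 together with Csf1r, C1qa, Lyz2 and S100a8, while H2-Oa, H2-Ob and Cd79b range by 0.70 or less between sort means.

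Markers of other spleen cells also varied across sorts, many of them highest in sort 2 like the class II genes. The summed linear level of 17 myeloid genes, in multiples of the array's 75th percentile, was 19.8, 355 and 55.4 in Eomes-positive cells, against 40.2, 424.5 and 44.8 in Eomes-negative cells. That of 15 B cell genes was 11.04, 26.1 and 22.5 in Eomes-positive cells, against 19.0, 39.1 and 26.8 in Eomes-negative cells, of which Cd79b, with a range of 0.31 between sort means, made up 54.9%. The sum of 12 dendritic cell genes was 110.6, 111.1 and 80.1 in Eomes-positive cells, against 120.2, 131.4 and 99.5 in Eomes-negative cells, and 54.1% of it was the brightest Siglech probe. Of the 26 tested myeloid probes 25 (96.2%) were highest in sort 2, as were 12 of 16 B cell probes and 9 of 13 dendritic cell probes. The sum of 4 erythroid genes was 23.5, 221.7 and 279.5 in Eomes-positive cells, against 23.3, 239.6 and 164.8 in Eomes-negative cells. That of 4 plasma cell genes was 12.4, 62.7 and 20.8 in Eomes-positive cells, against 16.9, 80.2 and 23.6 in Eomes-negative cells. Sort 1 was thus lowest and sort 2 high for the myeloid, B cell, erythroid and plasma cell sums in either population, while the γδ T cell sum lay between 258.4 and 350.1 on the 6 arrays. Probe by probe the myeloid list shared the peak in sort 2 but less of the low in sort 1. Of its 26 probes 9 (34.6%) were lowest in sort 1, against 8 of 13 class II probes (61.5%) and 27.4% of all tested probes. The myeloid median of sort 3 minus sort 1 was -0.65, against 1.49 for class II. These class II values include the Ciita probe, which was lowest in sort 1 and is treated below. The B cell list had 11 of 16 probes (68.8%) lowest in sort 1, and a median of 0.405. Lowest in sort 1 were also 3 of 4 plasma cell, 4 of 4 erythroid and 7 of 13 dendritic cell probes. Their medians were 0.374, 3.22 and 0.288. The part of these cells in the class II signal was not tested.

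Across the 6 arrays the profile of H2-Aa had correlations with the 26 myeloid probes of 0.0392 to 0.967 (median 0.802), the lowest with an Itgam probe and the highest with Lyz2. With the 16 B cell probes they were -0.0282 to 0.997 (median 0.81), the lowest with Cd22 and the highest with Faim3. With the 13 dendritic cell probes they were -0.187 to 0.995 (median 0.275), the lowest with Tcf4 and the highest with Cd209a, and with the 7 γδ T cell probes -0.616 to 0.549 (median -0.0161). The 4 erythroid probes, for cells not known for class II, gave 0.797 to 0.92 (median 0.837), the highest median of these lists. The 4 plasma cell probes gave 0.275 to 0.949 (median 0.55). High values were thus seen for the erythroid list as well as for the myeloid and B cell lists, and the reason was not tested. These 6 arrays share sorts in pairs, so the values are a description. Defining markers were dim: of the B cell factors, Pax5 was measured on 2 arrays by 1 of its 2 probes and Ebf1 on 1 array of each population. The dendritic cell genes Xcr1 and Clec9a were each measured on 1 array of each population. The Clec9a levels were -7.39, -2.52 and -6.41 in Eomes-positive cells, against -7.38, -2.06 and -6.25 in Eomes-negative cells, so that sort 2 alone stood out.

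The direction between the populations within a sort was also compared. In Eomes-positive cells 6 of 13 class II probes (46.2%) were lower in sorts 1 and 2 and higher in sort 3, as were 17 of 26 myeloid probes and 8 of 16 B cell probes, against 7.21% of all tested probes. The myeloid markers had median differences of -1.62, -1.36 and 0.67 in the 3 sorts. Csf1r, the receptor for macrophage colony-stimulating factor, had levels of -0.09, 3.74 and 1.05 in Eomes-positive cells, against 2.61, 5.14 and 0.23 in Eomes-negative cells. Csf1r, H2-Aa, H2-Ab1, H2-Eb1 and Cd74 were thus among the probes that changed sides in sort 3, whereas H2-DMa and H2-DMb1 stayed lower in all 3 sorts.

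**Figure D4:**
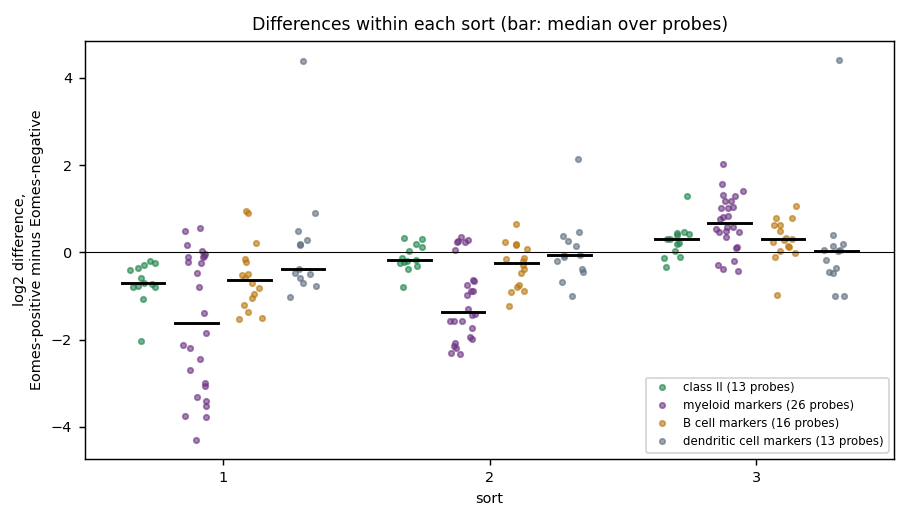
Log2 difference, Eomes-positive minus Eomes-negative, within each sort for the tested probes of class II genes and of myeloid, B cell and dendritic cell markers (points), with the median over probes as a bar. The class II medians are -0.71, -0.17 and 0.30 in sorts 1, 2 and 3, and the myeloid medians change sign in the same sort.

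Slides were shared unevenly, and this touches class II. Slide 1 held the Eomes-positive array of sort 1 and the Eomes-negative arrays of sorts 1 and 2, slide 2 the Eomes-positive array of sort 2, and slide 3 both arrays of sort 3. The median class II difference was -2.04 among the slide 1 arrays, 0.30 between the slide 3 arrays and -1.21 in a fit blocked on slide, with 0 called. Those values mix the sorts, since the sort 2 array with its high class II signal enters slide 1 on the Eomes-negative side alone. On slide 1, the Eomes-negative arrays of sorts 1 and 2 had H2-Aa levels of 1.43 and 4.81. These arrays had the same RNA amount but came from different pools of spleens, of mice aged 9 and 9.5 weeks. The source of the gap was not tested. For the classical class I probes these 3 medians were 0.26, 0.15 and 0.22, for the nonclassical ones 0.27, -0.007 and 0.18, and for antigen processing 0.12, -0.05 and 0.07.

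Ciita is the master regulator of class II genes, and its probe did not follow them. That 1 probe had levels of -2.27, -0.50 and 6.08 in Eomes-positive cells, against -2.01, -0.82 and 5.77 in Eomes-negative cells. Signal was low in sorts 1 and 2 and very high in sort 3 in both populations, a range of 8.07 between sort means (limma F test of sort, adjusted p = 0.0016). The difference between populations was 0.12 (SE 2.90, limma adjusted p = 0.998, interval -7.03 to 7.27). The probe holds a simple repeat. On the whole array 4 probes, this one included, hold that repeat, and the 4 behaved alike. Sort 3 exceeded sort 1 by 8.07 for Ciita, 8.48 for Tenm1, 8.52 for Cbln2 and 7.41 for Prg4, which encode a teneurin, a cerebellin and a joint lubricant. The Ciita probe thus varied with probes of the same repeat and not with H2-Aa, and no value for Ciita transcript is drawn from it here.

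**Figure D5:**
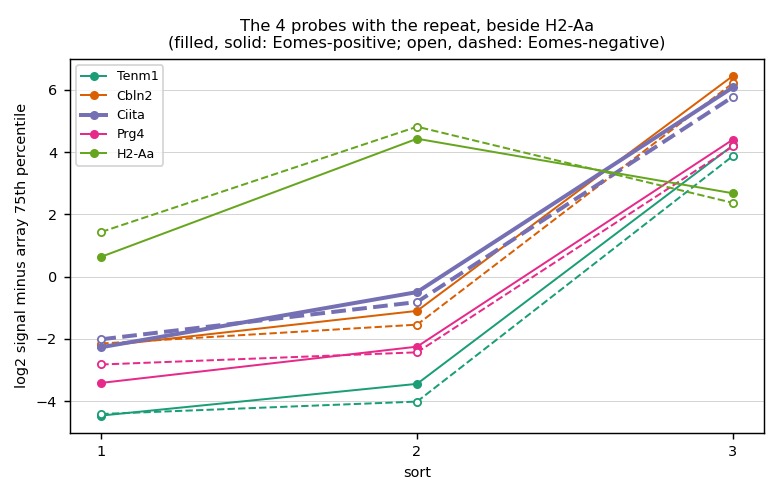
Levels by sort (y axis, log2 signal minus the array's 75th percentile; filled and solid for Eomes-positive, open and dashed for Eomes-negative) of the 4 probes on the array that hold the same simple repeat, beside H2-Aa. The 4 repeat probes are higher by 7.41 to 8.52 in sort 3 than in sort 1 in the mean of both populations, while H2-Aa peaks in sort 2.

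None of the factors with which Ciita works was called. Rfxank and Rfxap are parts of the RFX complex, and Nfya, Nfyb and Nfyc form NF-Y, which binds class II promoters at an inverted CCAAT box. Of 8 tested probes of these genes 0 were called, the median difference was 0.03, and the median range between sort means was 0.53, beside 0.52 over all tested probes. The sorts differed for 2 of the 8 (25%), an Nfya and an Nfyb probe with ranges of 0.75 and 0.88, against 21.3% of all tested probes (limma F test of sort, adjusted p = 0.0447 and 0.0384). Both probes for Rfx5, the third RFX subunit, were measured on no array. The 2 brightest probes of this list had differences of -0.07 for Nfyc and -0.03 for Nfyb.

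The promoters of 3 class II genes are shown because they carry the CTGATTGG letters of that box, in capitals, while their genes had different profiles between sorts:
H2-Aa (chr17:34287847-34287924, minus strand, GRCm38.p6): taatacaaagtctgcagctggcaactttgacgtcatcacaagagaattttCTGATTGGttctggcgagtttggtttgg
H2-Eb1 (chr17:34305755-34305832, plus strand, GRCm38.p6): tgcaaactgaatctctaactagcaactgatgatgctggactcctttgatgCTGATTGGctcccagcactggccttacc
H2-Oa (chr17:34092283-34092360, plus strand, GRCm38.p6): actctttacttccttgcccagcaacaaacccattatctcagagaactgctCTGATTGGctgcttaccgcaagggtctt
On either strand the motif was in 4 of 9 class II windows, 3 of 3 classical and 10 of 19 nonclassical class I windows, 2 of 6 antigen processing windows and 4.1% of all windows. The class II matches lay on the strand of the gene, and all class I matches on the opposite strand. The 2 antigen processing matches, for Psmb9 and Tap1, are the same site in overlapping windows. Each start of H2-K1, H2-M9 and H2-DMa counts as a window of its own. The range between sort means was 3.58 for H2-Aa and 3.54 for H2-Eb1, and 0.70 for H2-Oa, with the same letters in its promoter.

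Of 10 probes for 8 genes of the endosomal route 0 were called. Ifi30, the endosomal thiol reductase GILT, had levels of 0.10, 2.61 and 1.44 in Eomes-positive cells, against 1.38, 3.23 and 1.99 in Eomes-negative cells. It had the class II profile across sorts and was lower in Eomes-positive cells of each sort (difference -0.82, limma adjusted p = 0.883). The protease cathepsin S, Ctss, which trims the invariant chain, had levels of 4.60, 5.31 and 4.76 in Eomes-positive cells, against 5.08, 5.67 and 4.69 in Eomes-negative cells, a range of 0.77 between sort means. The protease cathepsin D, Ctsd, had levels of 5.03, 5.12 and 5.45 in Eomes-positive cells, against 4.74, 4.96 and 5.101 in Eomes-negative cells, a difference of 0.27 (SE 0.19, limma adjusted p = 0.775).

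Probes that did differ were found among the receptors that read class I and class II molecules. Of 34 listed genes 27 were on the array, with 38 tested probes, and 3 probes were called higher and 1 lower, or 6 and 2 when blocked on sort, beside the shares of all tested probes given above. Klrc1, the inhibitory NKG2A chain that binds Qa-1 with CD94, had levels of 5.56, 5.17 and 5.74 in Eomes-positive cells, against 2.79, 2.58 and 2.74 in Eomes-negative cells, with no overlap. It rose by 2.78 (SE 0.20, limma adjusted p = 0.0035), its second probe by 2.51, and a Klrc3 probe, for another NKG2 chain, by 2.76. Cd8b1, the CD8β chain that binds class I, had levels of -0.09, 0.15 and -1.03 in Eomes-positive cells, against 2.93, 2.23 and 2.44 in Eomes-negative cells, and fell by 2.86 (SE 0.37, limma adjusted p = 0.0211). Cells bearing CD8β protein had been depleted before the sort. Blocking on sort also called the Ly49 genes Klra4, Klra8 and Klra15 higher and Cd8a lower. Ly49 and NKG2 genes are families of close copies, so their probes may share signal, and the Klra8 probe was measured on 1 Eomes-negative array. The ligand of NKG2A, H2-T23, had the difference of 0.24 given above.

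H2-Ke2 and H2-Ke6 carry the prefix by position in the complex and encode no MHC molecule. H2-Ke2, now named Pfdn6, is a prefoldin subunit and had a difference of -0.10 (SE 0.15), and H2-Ke6, a steroid dehydrogenase also known as Hsd17b8, had 0.05 (SE 0.14). Neither passed the test (limma adjusted p = 0.959 and 0.990), and their ranges between sorts were 0.22 and 0.14, inside the same chromosomal region as the class II genes with ranges above 3.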

How the data were processed

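RNA was measured on 6 one-colour Agilent arrays, 1 for each population and sort. Per the file headers, Feature Extraction 10.7.3.1 read the scans, subtracted background and wrote linear intensities, with flags for spots above background, saturated or outlying. The authors' deposited value table holds a linear intensity for each probe on each array. Each array had 162570 spots, 4854 of them controls, and 4 spots per probe. The main fit used the spot intensities written by Feature Extraction, and the authors' table served only as an alternative. Log2 of the spot intensity was averaged over a probe's spots, outliers dropped, and scaled by subtracting each array's 75th percentile. Probe positions are those of the files (mm9), and accessions gave current symbols for 58 of the 70 member probes through RefSeq.

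The 2 populations were set against each other in limma 3.58.1 (R 4.3.3), group only, with Benjamini-Hochberg adjustment over all 21131 probes measured on at least 3 arrays. With 3 arrays a side, the smallest two-sided p of an exact permutation test is 0.1. Same-numbered arrays come from the same sort, so the sort pairs them: deviations from group means correlated at 0.796, 0.803 and 0.795 within sorts and between -0.569 and -0.236 otherwise. P-values of the group-only fit cover the spread between sorts of pooled spleens. Those of the sort-blocked fit cover only how far the difference between populations varies from sort to sort. The F test of sort treats the 2 arrays of a sort as if they were replicates, so its p-values do not cover the spread between pools of spleens. The fit was tested on simulated data. The members, lists and tests were chosen with earlier results of these data known, and the test between sorts was added after seeing the data. The naming rule gave values on each array for the brightest probe of 20 genes listed by name and for members past the test, and from each other list for genes past the test or else the 2 brightest probes. Other genes named, such as H2-Q5, H2-M9, H2-M2, H2-Oa, Ifi30, Csf1r, Clec9a and the repeat probes, were chosen after their values were seen. Alternatives were a sort or slide block, other scaling, background correction and filters, the authors' table, 1 probe per gene, a variance trend, and leaving out each sort or array. One marker gene and one probe sequence are not reported here. Plots and sequence matches used Python 3.11.15, pandas 2.3.3 and matplotlib 3.10.9.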

Additional observations from a re-analysis of the deposited data

How the results depend on the processing

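No member probe was called under any of the 19 alternatives, whose lowest adjusted p over members was 0.0619, with the sort as a block. That block, by which the arrays are paired, changed no call of a member, and raised the calls over all probes to 1419 in place of 510. Testing all probes without a filter gave 264. Omitting 1 sort or 1 array gave 0 to 267: 0 without sort 1 (1667 at an unadjusted p under 0.05), 0 without sort 2 (1503), 89 without sort 3 and 164 to 267 without 1 array. Differences near 0 changed sign: Psmb10 was 0.084 with median scaling and 0.012 with quantile normalization, and Tap2 was 0.066, 0.0069 and, with slide as a block, 0.015. Ciita was -0.36 with slide as a block. The bright class I probes kept their sign under other scaling, but the size changed. With quantile normalization the differences were 0.17 for H2-K1, 0.077 for H2-D1, 0.14 for B2m, 0.12 for H2-Q7 and 0.13 for H2-T23. With median scaling they were 0.40, 0.29, 0.37, 0.33 and 0.33 in the same order. Omitting 1 sort or 1 array gave differences of -0.10 to 0.60 for B2m, -0.043 to 0.63 for H2-K1, -0.020 to 0.57 for H2-T23, -0.066 to 0.22 for H2-M3, -0.034 to 0.00029 for Psmb10 and -0.10 to 0.048 for Tap2. For class II it gave -1.22 to 0.68 for H2-Aa, -1.09 to 0.84 for H2-Ab1, -1.14 to 0.75 for H2-Eb1, -1.32 to 0.86 for Cd74 and -2.36 to 2.52 for Ciita. Sizes moved without a turn of sign for H2-D1 (0.0046 to 0.44), H2-Q7 (0.021 to 0.50), Tap1 (0.024 to 0.30), Tapbp (0.078 to 0.34), Nlrc5 (0.27 to 0.67), Mr1 (0.11 to 0.36), Cd1d1 (-0.49 to -0.16), Psmb8 (-0.20 to -0.094) and Psmb9 (-0.16 to -0.048). Dropping 1 array leaves the sorts unequal between the populations. The 18 dim member probes that were measured on no array have no value, and differences smaller than the intervals above were not detectable with 3 arrays per population.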
